A study of Mus musculus with 8 samples.

Results

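Genes for the synthesis of cholesterol and of fatty acids were followed through the differentiation of mouse embryonic stem (ES) cells in culture. The set was chosen by name and held 32 genes: 7 of the mevalonate arm, 11 of the path from squalene to cholesterol, 6 that sense or carry sterol, and 8 of fatty acid synthesis and desaturation. On the Illumina BeadChip, 29 of them had a probe, with 39 probes in all. Of the 25697 probes on the array, 35 belonged to the set and were detected (detection p under 0.05) on at least 2 of 8 arrays, and these represented 28 of the 9915 genes that could be tested in the same way. Acat2, Fdft1 and Mvk had no probe here and were not analysed. Fasn, the fatty acid synthase, was detected on 1 of 8 arrays and was not tested.

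All cells came from 1 line, E14TG2a, and the study asked how lung epithelium can be obtained from it. Each of 4 groups had 2 arrays. The ES group was undifferentiated and was kept in GMEM with 10% fetal calf serum (FCS) and medium containing LIF, the cytokine that holds mouse ES cells undifferentiated. The IDE2 group spent 11 days in Iscove's and Ham F12 medium with N2, B27 and 1% FCS, with 1 uM IDE2 throughout. IDE2 is a small molecule used to drive ES cells toward definitive endoderm, from which lung and gut arise. The IDE2+FGF2 group had IDE2 for 6 days and then, in the same medium, 500 ng/ml FGF2 for 5 days. The IDE2+FGF10 group had 25 ng/ml FGF10 in those 5 days. Both are fibroblast growth factors, given at different doses. No group was differentiated without IDE2, so IDE2, time, medium and serum cannot be told apart in a comparison with ES. Against the IDE2 group, adding an FGF and withdrawing IDE2 cannot be told apart.

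Cholesterol is built from acetyl-CoA through mevalonate, isoprenoid units, squalene and lanosterol. The genes of this path are controlled together by the SREBP transcription factors. When membrane sterol is low, SCAP escorts the SREBP precursor from the endoplasmic reticulum to the Golgi, where it is cleaved and released; when sterol is high, the INSIG proteins hold SCAP back. SREBPs also act on fatty acid synthesis and on the desaturases, which put double bonds into fatty acid chains. Cells can make their sterol or take it up from lipoproteins in serum.

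Between 11609 and 13422 probes were detected per array, and with 2 arrays a group every value is known only roughly. The 2 arrays of a group differed by 2-fold or more at 176 of 9915 genes in ES and 180 in IDE2+FGF10, but at 1553 in IDE2 and 1023 in IDE2+FGF2. The labels do not say whether replicates were separate cultures, so the p-values reflect the spread between these arrays alone, and that spread may be technical. Of 10 ES cell markers, 9, 8 and 9 fell against ES in the IDE2, IDE2+FGF2 and IDE2+FGF10 groups. Their median log2 change was -3.55, -2.27 and -3.95. Their summed log2 level was 17.05 to 17.18 in ES and 14.47 to 15.49, 16.10 to 16.14 and 15.36 to 15.37 in the other groups in that order. Outside ES these sums come mostly from the bright Dppa5a, which fell in IDE2 only. All 5 mesenchyme markers rose in each differentiated group (sums of 8.51 to 8.54 in ES and 14.94 to 15.53 elsewhere, where the bright Acta2 dominates). Among them Col1a1, Col3a1 and Bgn were undetected in ES. They passed the detection filter only through the groups in which they were high, and so had to differ. The same holds for Cxcr4, Ttr and Apoa2 below. Of 7 endoderm markers Foxa2 and Gata4 were not above background. Of the 5 tested 4 rose in IDE2 (Krt8, Krt18, Sox17 and Cxcr4) and 2 in each FGF group (Krt8 and Krt18). Their median change was 2.04, 0.82 and 0.65 in IDE2, IDE2+FGF2 and IDE2+FGF10. Their sums, mostly from the bright Krt8 and Krt18, were 11.36 to 11.39 in ES and 13.99 to 15.10 elsewhere. Markers of tissues known for high lipid synthesis were checked too. Alb, Afp and Apoa1 of liver, Fabp4, Plin1 and Cebpa of fat, and Sftpb, Sftpc and Nkx2-1 of surfactant-making lung cells did not reach detection on 2 arrays. Other markers of these lists went different ways. Ttr of liver, undetected in ES, was at least 6.52-fold, 7.95-fold and 10.2-fold higher in IDE2, IDE2+FGF2 and IDE2+FGF10. Apoe of liver fell 2.98-fold in IDE2 and did not pass in the FGF groups. Hnf4a passed in no group, and Apoa2, undetected in ES, rose in IDE2+FGF2 only. Abca3 of lung was 3.28-fold, 3.54-fold and 4.54-fold higher than in ES, in the same order. Mbp of myelinating glia, the 1 tested gene of its list, rose 12.8-fold, 9.82-fold and 12-fold. The summed level of the liver markers tested, 4 of 8 with Apoe among them, was 9.64 to 10.18 in ES and 8.91 to 10.11, 10.61 to 10.71 and 10.55 to 10.79 in the other groups in the same order. For the fat markers tested, 3 of 6, it was 8.17 to 8.48, 9.05 to 9.17, 9.22 to 9.39 and 8.89 to 9.08. The part of cell state in the results below was not tested.

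In every differentiated group more members were higher than in ES than were lower, and the largest rises were shared between sterol enzymes, sterol sensors and desaturases. Levels are normalised log2 intensities, and a gene rose or fell where limma's adjusted p over all 9915 genes was under 0.05. In IDE2, 14 of 28 tested members rose (50%) and 2 fell, where 23.1% of all genes rose and 22.2% fell. In IDE2+FGF2, 12 rose and 1 fell, where 17.8% of all genes rose and 16.8% fell. In IDE2+FGF10, 13 rose and 1 fell, where 22.2% of all genes rose and 22.8% fell. The median change over the tested members was 1.07, 0.81 and 0.84 on the log2 scale in these comparisons, beside -0.01 over all genes in each. Without background correction the median over the members was 0.73, 0.73 and 0.76. The 3 comparisons share the same 2 ES arrays, so they do not repeat each other independently. The members were also chosen with earlier results of these data known, so their shares beside those of all genes only describe the set. In these bulk samples fewer cells of a type and less RNA per cell cannot be told apart.

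With replicate 2 of IDE2 and of IDE2+FGF2 both left out, 15, 15 and 19 members rose, and 1, 3 and 2 fell. With any 1 array left out, 12 to 15, 10 to 14 and 11 to 16 rose. With each array scaled to its median, the median change over all genes was -0.23 in IDE2+FGF10 against ES. There 11 members rose and 3 fell. The shares of all genes called under these settings are not given here. These counts alone thus show nothing particular to the members. Scd2 passed the filter on low signals only through the groups in which it was high, and so had to differ; it is counted among the rises. Every other tested member was detected on at least 1 ES array.

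**Figure D1:**
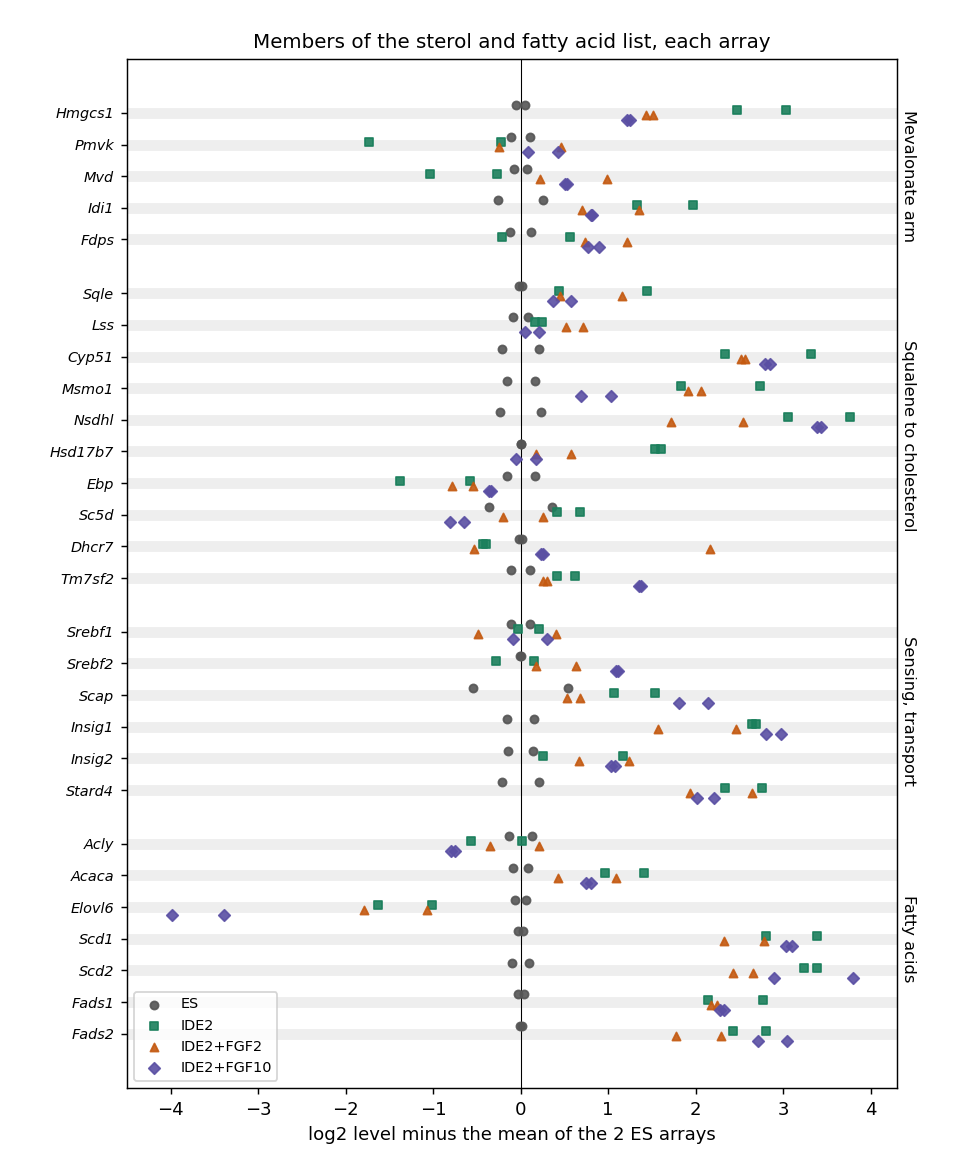
Level of each tested member on each of the 8 arrays, as the log2 level minus the mean of the 2 ES arrays (x axis), with genes in rows grouped by role and groups by colour and marker. Insig1, Stard4, Cyp51, Nsdhl, Scd1, Scd2, Fads1 and Fads2 lie well to the right of 0 in the 6 differentiated arrays, Elovl6 lies to the left, and Srebf1 and Acly scatter around or near 0.

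Within the mevalonate arm Hmgcs1, at its start, and Idi1 rose, and the kinase and decarboxylase between them did not. Hmgcs1, the cytosolic HMG-CoA synthase, had levels of 12.68 and 12.79 in ES, 15.21 and 15.77 in IDE2, 14.25 and 14.17 in IDE2+FGF2, and 13.95 and 13.98 in IDE2+FGF10. All 6 differentiated arrays were above both ES arrays, the IDE2 arrays highest, and the 4 groups did not overlap. Lack of overlap with ES was common, at 72.9%, 70% and 81.5% of all genes in IDE2, IDE2+FGF2 and IDE2+FGF10. Hmgcs1 rose 6.76-fold in IDE2 (2.76 ± 0.28 on the log2 scale, SE with n = 2 arrays in each group; adjusted p = 4.2e-05), 2.78-fold in IDE2+FGF2 (adjusted p = 0.0026) and 2.35-fold in IDE2+FGF10 (adjusted p = 0.0051). Idi1, which interconverts the isoprenoid units, read 5.73 and 6.24 in ES, 7.31 and 7.95 in IDE2, 7.34 and 6.69 in IDE2+FGF2, and 6.80 and 6.79 in IDE2+FGF10. Its ES arrays were the lowest of the 8, and IDE2+FGF2 overlapped with both other differentiated groups. Idi1 rose 3.13-fold in IDE2 (adjusted p = 0.0029) and 2.04-fold in IDE2+FGF2 (adjusted p = 0.037), and in IDE2+FGF10 the change was 0.81 (adjusted p = 0.075).

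The enzymes between these 2 behaved otherwise. Pmvk, the phosphomevalonate kinase, changed by -0.97 ± 0.45 in IDE2 (adjusted p = 0.1), 0.10 in IDE2+FGF2 and 0.25 in IDE2+FGF10. Mvd, the decarboxylase that follows it, changed by -0.65, 0.61 and 0.52 in the same order. Neither passed against ES, and the 2 IDE2 arrays differed for both, by 1.5 for Pmvk and 0.77 for Mvd. Fdps, which makes farnesyl diphosphate, rose 1.97-fold in IDE2+FGF2 (adjusted p = 0.04), with changes of 0.18 in IDE2 and 0.83 in IDE2+FGF10 that did not pass. Of the 5 mevalonate genes tested, 2, 3 and 1 rose in the 3 groups and none fell by limma, at an unadjusted p under 0.05 as well. The shares that rose were 40%, 60% and 20%, beside 23.1%, 17.8% and 22.2% of all genes. The 1 of 5 in IDE2+FGF10 is thus no more than the share of all genes there. The median of these 5 was 0.18, 0.98 and 0.81, and the first turned to -0.09 with median scaling. The calls of Fdps and of Idi1 in IDE2+FGF2 were each lost in several settings, among them without ES replicate 1 (adjusted p = 0.12 and 0.26), without ES replicate 2 (0.21 and 0.07), without IDE2+FGF2 replicate 1 (0.051 and 0.2) and without either IDE2+FGF10 array (0.069 and 0.063). That of Fdps was also lost without IDE2+FGF2 replicate 2 (0.17) and with median scaling (0.069).

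Along the path from squalene to cholesterol, Cyp51 and Nsdhl rose in every differentiated group, Msmo1 in 2 of them and Hsd17b7 and Tm7sf2 in 1 each. Cyp51, the lanosterol demethylase, had levels of 7.97 and 8.39 in ES, 10.51 and 11.50 in IDE2, 10.74 and 10.70 in IDE2+FGF2, and 10.97 and 11.03 in IDE2+FGF10. The differentiated groups lay together, more than 2 log2 units above ES. Cyp51 rose 7.08-fold in IDE2 (log2 change 2.82 ± 0.35, adjusted p = 0.00011), 5.8-fold in IDE2+FGF2 (adjusted p = 0.00033) and 7.06-fold in IDE2+FGF10 (adjusted p = 0.00011). Nsdhl, the dehydrogenase that takes part in removing the C4 methyl groups, read 6.11 and 6.58 in ES, 9.40 and 10.11 in IDE2, 8.89 and 8.06 in IDE2+FGF2, and 9.78 and 9.73 in IDE2+FGF10. Its rises were 10.6-fold (adjusted p = 4.9e-05), 4.37-fold (0.0013) and 10.6-fold (5e-05), with IDE2+FGF2 the lowest of the differentiated groups. The ES levels of Nsdhl lay near the lowest detected on those arrays (5.64 and 5.63), which limits the size of these folds.

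Msmo1 and Hsd17b7 act at the same stage, as the C4 methyl oxidase and the keto reductase. Msmo1 had levels of 9.87 and 9.55 in ES, 11.54 and 12.44 in IDE2, 11.62 and 11.77 in IDE2+FGF2, and 10.74 and 10.40 in IDE2+FGF10. It rose 4.85-fold in IDE2 (adjusted p = 0.00039) and 3.95-fold in IDE2+FGF2 (0.0013), and its change of 0.86 in IDE2+FGF10, where it lay between ES and the other groups, did not pass (0.06). Hsd17b7 read 8.81 and 8.81 in ES, 10.34 and 10.41 in IDE2, 9.38 and 8.99 in IDE2+FGF2, and 8.98 and 8.76 in IDE2+FGF10. The 2 IDE2 arrays stood above the other 6. Hsd17b7 rose 2.95-fold in IDE2 (adjusted p = 0.0011), with changes of 0.37 (0.33) in IDE2+FGF2 and 0.05 (0.9) in IDE2+FGF10.

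Ebp, the sterol isomerase, read 10.33 and 10.01 in ES, 9.59 and 8.79 in IDE2, 9.39 and 9.63 in IDE2+FGF2, and 9.83 and 9.81 in IDE2+FGF10. It fell 1.97-fold in IDE2 (adjusted p = 0.029), a call lost without IDE2 replicate 2 (log2 change -0.58, adjusted p = 0.12), without either ES array (0.18 and 0.073) and without either IDE2+FGF10 array (0.051). Tm7sf2, a sterol reductase, read 5.60 and 5.82 in ES, 6.12 and 6.33 in IDE2, 5.96 and 6.01 in IDE2+FGF2, and 7.06 and 7.09 in IDE2+FGF10. It was highest in IDE2+FGF10, where it rose 2.57-fold (adjusted p = 0.0019), from a level detected on 1 of the 2 ES arrays. Lss, which closes the ring to lanosterol, changed by 0.20, 0.62 and 0.13 and did not pass. Dhcr7, the last reductase before cholesterol, did not pass either, and its IDE2+FGF2 arrays read 8.0 and 10.69, the widest gap between replicates of any member. Of the 10 tested genes from squalene onward, 4, 3 and 3 rose in IDE2, IDE2+FGF2 and IDE2+FGF10, and 1 fell, in IDE2. These are 40%, 30% and 30% that rose, beside 23.1%, 17.8% and 22.2% of all genes. In IDE2+FGF10 the 2 shares were near each other. The medians of the 10 genes were 0.74, 0.71 and 0.36, and the last turned to -0.06 with median scaling.

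Probes of 1 gene did not always give the same answer. Sqle, the squalene epoxidase, has 2 probes annotated to the same transcript. The brighter probe, which represented the gene, read 11.30 and 11.27 in ES, 11.72 and 12.73 in IDE2, 11.74 and 12.44 in IDE2+FGF2, and 11.86 and 11.65 in IDE2+FGF10, and its changes of 0.94, 0.80 and 0.47 did not pass. The dimmer probe read 6.98 and 7.44 in ES, 10.22 and 11.68 in IDE2, 9.83 and 9.09 in IDE2+FGF2, and 10.37 and 10.39 in IDE2+FGF10. It rose in all 3 groups, by 3.74 (adjusted p = 9.2e-05), 2.26 (0.0031) and 3.17 (0.00026) on the log2 scale, in a fit with every probe as a feature. Both probes put ES lowest, but the size of the rise differed, so the change of the gene is uncertain. Of the 4 Nsdhl probes, 3 moved together, by 2.76, 3.43 and 3.41 in IDE2, and the other by 0.80 (adjusted p = 0.061). The detected Insig1 probes rose by 2.83, 3.30 and 2.66 in IDE2. For Insig2, 1 probe changed by 1.06 (0.032) and another by 0.01 in IDE2+FGF10.

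**Figure D2:**
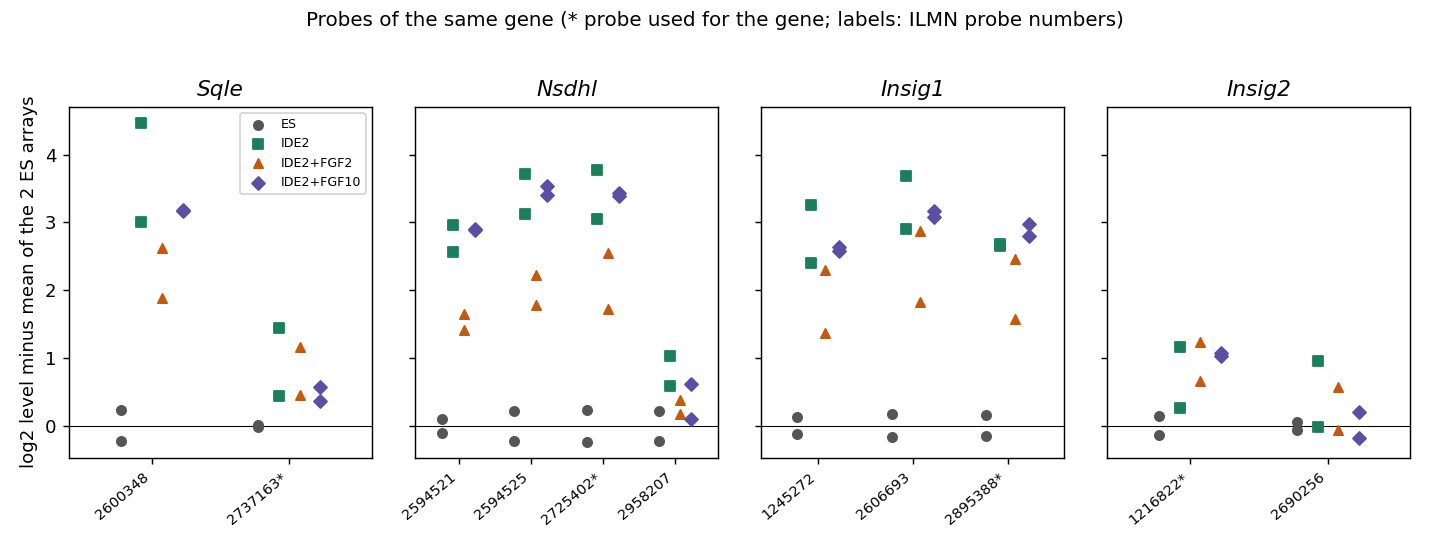
Levels of the detected probes of Sqle, Nsdhl, Insig1 and Insig2 on the 8 arrays, as the log2 level minus that probe's mean over the 2 ES arrays (y axis), with 1 column per probe and a star at the probe used for the gene. The starred Sqle probe averages 0.94 in IDE2 where the other averages 3.74, and 1 Nsdhl probe stays near 0.80 beside 3 that rise by 2.76 to 3.43.

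Promoters are shown for Hmgcs1, Cyp51, Nsdhl and Insig1, genes of the sterol path and its control that rose in each differentiated group, because such genes are classically controlled by SREBP together with NF-Y and Sp1. Sequences are from RefSeq (GRCm38.p6), from 250 bases before to 50 after the annotated start, written in the direction of the gene: chr13:119690101-119690400 on the plus strand, chr5:4104648-4104947 on the minus strand, chrX:72918271-72918570 on the plus strand and chr5:28071162-28071461 on the plus strand. Capitals mark matches, on either strand, to a sterol regulatory element type motif (TCACNCCAC), the CCAAT box bound by NF-Y, the GC box (GGGCGG) and the palindromic E-box (CACGTG).
Hmgcs1: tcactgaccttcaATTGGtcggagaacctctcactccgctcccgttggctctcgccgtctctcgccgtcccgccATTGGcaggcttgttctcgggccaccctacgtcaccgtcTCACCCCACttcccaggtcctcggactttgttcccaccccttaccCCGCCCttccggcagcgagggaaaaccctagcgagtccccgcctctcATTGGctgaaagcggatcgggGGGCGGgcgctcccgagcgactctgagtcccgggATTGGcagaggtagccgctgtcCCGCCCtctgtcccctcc
Cyp51: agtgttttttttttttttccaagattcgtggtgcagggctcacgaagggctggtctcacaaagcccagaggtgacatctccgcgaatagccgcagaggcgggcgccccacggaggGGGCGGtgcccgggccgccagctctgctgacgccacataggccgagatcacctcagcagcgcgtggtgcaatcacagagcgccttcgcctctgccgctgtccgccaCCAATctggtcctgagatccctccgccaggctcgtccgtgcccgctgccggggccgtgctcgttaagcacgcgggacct
Nsdhl: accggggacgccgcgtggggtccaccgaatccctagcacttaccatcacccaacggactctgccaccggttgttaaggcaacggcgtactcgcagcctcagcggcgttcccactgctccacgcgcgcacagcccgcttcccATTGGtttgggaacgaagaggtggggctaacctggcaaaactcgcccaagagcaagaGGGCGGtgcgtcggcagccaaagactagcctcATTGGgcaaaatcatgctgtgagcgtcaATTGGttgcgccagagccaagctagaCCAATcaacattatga
Insig1: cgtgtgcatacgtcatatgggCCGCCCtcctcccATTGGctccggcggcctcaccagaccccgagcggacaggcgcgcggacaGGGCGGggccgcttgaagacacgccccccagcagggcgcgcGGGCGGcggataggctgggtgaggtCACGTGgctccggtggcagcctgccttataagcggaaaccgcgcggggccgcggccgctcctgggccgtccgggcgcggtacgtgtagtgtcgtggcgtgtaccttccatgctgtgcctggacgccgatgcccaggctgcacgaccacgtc
Hmgcs1 held 1 TCACNCCAC, 4 CCAAT and 3 GGGCGG matches, and Nsdhl held 4 CCAAT and 1 GGGCGG. Cyp51 had 1 of each of CCAAT and GGGCGG, and Insig1 had 1 CCAAT, 3 GGGCGG and 1 CACGTG. Of the 28 tested members, 22 had a promoter in the table. CCAAT was found in 18 of the 22 (81.8%), beside 44.1% of the 8003 tested genes with a promoter and 37.4% of all 32851 promoters. GGGCGG was found in 19 (86.4%, beside 68.0% of tested genes and 35.7% of all promoters), CACGTG in 5 (22.7%, beside 11.6% and 7.15%) and TCACNCCAC in Hmgcs1 only (4.55%, beside 1.41% and 1.24%). These shares describe letters in the window and were not tested.

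Among the genes that sense or carry sterol, the feedback protein Insig1 and the sterol carrier Stard4 moved most, while of the 2 transcription factors only Srebf2 passed, in IDE2+FGF10. Insig1 had levels of 7.73 and 7.42 in ES, 10.26 and 10.22 in IDE2, 10.03 and 9.15 in IDE2+FGF2, and 10.38 and 10.55 in IDE2+FGF10. The ES arrays lay well below the other 6. Insig1 rose 6.33-fold in IDE2 (log2 change 2.66 ± 0.33, adjusted p = 0.00012), 4.05-fold in IDE2+FGF2 (0.00097) and 7.43-fold in IDE2+FGF10 (7.1e-05). Stard4, which moves cholesterol between membranes, rose 5.85-fold (log2 change 2.55 ± 0.33, adjusted p = 0.00015), 4.89-fold (0.00045) and 4.33-fold (0.00049), from 7.92 and 8.34 in ES to between 10.07 and 10.89 in the differentiated arrays. Its 3 differentiated groups lay close to each other.

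Srebf1, the SREBP that favours fatty acid genes, had levels of 6.14 and 5.92 in ES, 6.24 and 6.00 in IDE2, 5.54 and 6.43 in IDE2+FGF2, and 5.94 and 6.33 in IDE2+FGF10. The 4 groups overlapped, and its changes against ES were 0.09, -0.05 and 0.10. Srebf2, the SREBP that favours sterol genes, read 9.44 and 9.43 in ES, 9.59 and 9.15 in IDE2, 9.61 and 10.07 in IDE2+FGF2, and 10.52 and 10.55 in IDE2+FGF10. The IDE2+FGF10 arrays were the highest, and Srebf2 rose 2.15-fold there (log2 change 1.10 ± 0.29, adjusted p = 0.01), with changes of -0.07 in IDE2 and 0.40 in IDE2+FGF2. With median scaling the rise was 0.65 and did not pass (adjusted p = 0.13), and the call was lost without either ES array (0.066 and 0.068) or either IDE2+FGF10 array (0.065 and 0.071).

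Scap, the escort of SREBP, read 5.97 and 7.06 in ES, 8.05 and 7.58 in IDE2, 7.19 and 7.04 in IDE2+FGF2, and 8.32 and 8.66 in IDE2+FGF10. It rose 2.46-fold in IDE2 (adjusted p = 0.016) and 3.92-fold in IDE2+FGF10 (0.0016), and changed by 0.60 in IDE2+FGF2 (0.25). The 2 ES arrays differed by 1.09, and without ES replicate 1 the change in IDE2 was 0.76 (adjusted p = 0.19); without IDE2 replicate 1 it was 1.06 (0.086). Insig2, the partner of Insig1, rose 2.08-fold in IDE2+FGF10 (adjusted p = 0.031), with changes of 0.71 and 0.95 in IDE2 and IDE2+FGF2 that did not pass. That call was lost with its probes averaged (0.54, adjusted p = 0.21), with median scaling (0.60, 0.23) and without any 1 of the ES or IDE2+FGF10 arrays (0.08 to 0.17). Of the 6 genes of this role 3, 2 and 5 rose and none fell by limma, at an unadjusted p under 0.05 as well. The shares that rose were 50%, 33.3% and 83.3%, beside 23.1%, 17.8% and 22.2% of all genes. The medians of the 6 genes were 1.00, 0.77 and 1.54, and 0.63, 0.56 and 1.07 without background correction.

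Fatty acid genes split by step: the desaturases rose, while the elongase Elovl6 fell. Scd1, the stearoyl-CoA desaturase that makes oleate, had levels of 8.71 and 8.76 in ES, 11.54 and 12.12 in IDE2, 11.52 and 11.06 in IDE2+FGF2, and 11.83 and 11.77 in IDE2+FGF10. All 6 differentiated arrays were more than 2 log2 units above ES. Scd1 rose 8.52-fold (log2 change 3.09 ± 0.30, adjusted p = 3e-05), 5.88-fold (0.00014) and 8.36-fold (3.1e-05). Scd2, a second gene of that family, read 4.58 and 4.78 in ES, not above background on either array, and 7.92 and 8.07 in IDE2, 7.11 and 7.34 in IDE2+FGF2, and 7.58 and 8.48 in IDE2+FGF10. Against the lowest level at which probes were detected, Scd2 was at least 5.14-fold, 3.01-fold and 5.26-fold higher. As it had to differ, no p-value is given for it. In the annotation Scd1 and Scd2 lie on the same chromosome with 2 genes between them.

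Fads1 and Fads2, the desaturases of polyunsaturated fatty acids, are close neighbours in the genome. Fads1 rose 5.46-fold (log2 change 2.45 ± 0.29, adjusted p = 9.3e-05), 4.64-fold (0.00027) and 4.94-fold (0.00013), from 11.21 and 11.14 in ES to between 13.31 and 13.94. Fads2 rose 6.14-fold (2.62 ± 0.30, adjusted p = 7.4e-05), 4.09-fold (0.00053) and 7.33-fold (4.2e-05), from 5.96 and 5.98 in ES to between 7.74 and 9.01. For both genes the ES arrays lay apart from the other 6. Levels of dim probes depend on the background correction: without it the change in IDE2 was 1.57 for Scd2 and 1.45 for Fads2. That of Fads2 was still past the threshold.

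Elovl6 lengthens palmitate to stearate. It had levels of 11.08 and 11.21 in ES, 9.51 and 10.13 in IDE2, 9.36 and 10.07 in IDE2+FGF2, and 7.76 and 7.16 in IDE2+FGF10. ES was highest and IDE2+FGF10 lowest, with IDE2 and IDE2+FGF2 overlapping between them. Elovl6 fell 2.51-fold in IDE2 (log2 change -1.33 ± 0.35, adjusted p = 0.011), 2.69-fold in IDE2+FGF2 (0.01) and 12.9-fold in IDE2+FGF10 (2.6e-05). The smaller falls were lost without ES replicate 1 (adjusted p = 0.053 and 0.055) or ES replicate 2 (0.072 in each), and without replicate 1 of IDE2 (0.065) or of IDE2+FGF2 (0.082).

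At the entry to fatty acid synthesis the picture was mixed. Acaca, the acetyl-CoA carboxylase, read 10.42 and 10.59 in ES and between 10.93 and 11.92 in the differentiated arrays. It rose 2.29-fold in IDE2 (adjusted p = 0.01), lost without ES replicate 1 (0.078) or IDE2 replicate 2 (0.051), and its changes of 0.76 and 0.78 in the other groups did not pass. Acly, which makes cytosolic acetyl-CoA from citrate, changed by -0.27, -0.07 and -0.77 and did not pass. Fasn read between 4.74 and 5.63 on the 8 arrays, near background throughout. Of the 7 fatty acid genes tested 5, 4 and 4 rose in IDE2, IDE2+FGF2 and IDE2+FGF10, and 1 fell in each. Their medians were 2.45, 2.03 and 2.30, and only 1.45, 1.04 and 1.61 without background correction. The shares that rose, Scd2 included, were 71.4%, 57.1% and 57.1%, beside 23.1%, 17.8% and 22.2% of all genes.

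**Figure D3:**
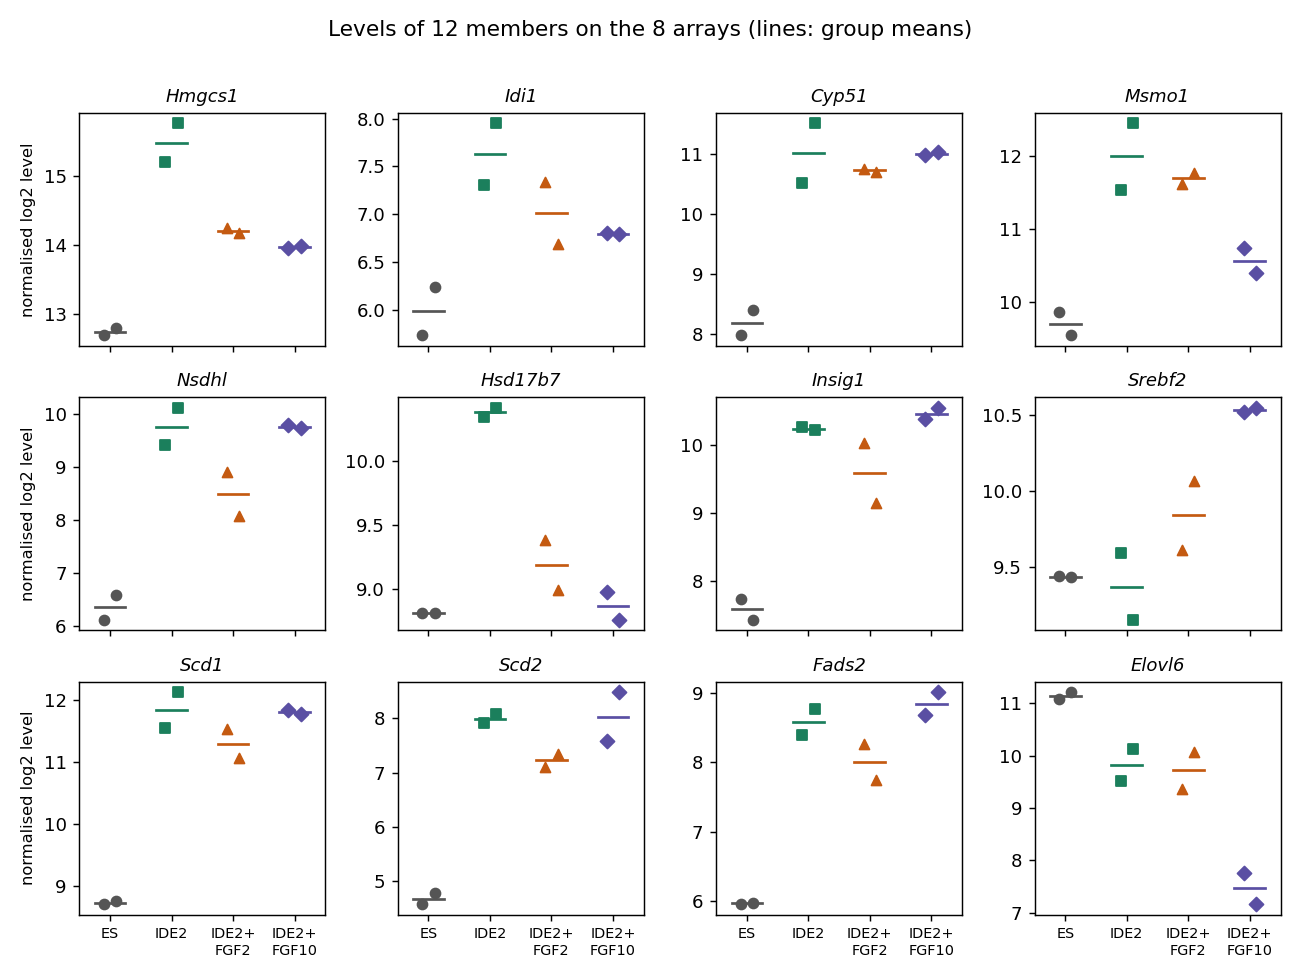
Normalised log2 level (y axis) of 12 members on the 8 arrays by group, with 1 point per array and a line at the mean of the 2 arrays. Cyp51, Nsdhl, Insig1, Scd1, Scd2 and Fads2 are low in ES and high in every differentiated group, Hsd17b7 is highest in IDE2, and Elovl6 steps down to 7.16 to 7.76 in IDE2+FGF10.

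Between differentiated groups fewer members differed, and IDE2 held the higher level of most sterol enzymes that passed, while the role medians went different ways. Against IDE2, the median change of the 15 cholesterol enzymes tested was -0.24 in IDE2+FGF2 and 0 in IDE2+FGF10. For the 5 mevalonate genes it was 0.80 and 0.65, and for the 10 from squalene onward -0.26 and -0.04. For the 6 sensing genes it was -0.20 and 0.29, and for the 7 fatty acid genes -0.43 and -0.14. In IDE2+FGF2 against IDE2, none of 28 members was higher by limma (3 at an unadjusted p under 0.05; 3.70% of all genes were higher) and 2 were lower, where 3.80% of all genes were lower. These were Hmgcs1, 2.43-fold lower (log2 change -1.28, adjusted p = 0.026), and Hsd17b7, 2.28-fold lower (-1.19, adjusted p = 0.03). Their arrays did not overlap, as given above, which also held for 48.2% of all genes. Each call was kept in 9 of 19 alternative settings, and was lost without IDE2 replicate 2 (adjusted p = 0.092 and 0.096) and without IDE2+FGF2 replicate 2 (0.13 in each). It was also lost without any 1 of the ES arrays (0.062 and 0.072) or the IDE2+FGF10 arrays (0.059 and 0.066), which enter only the estimate of the spread. With median scaling 1 member was higher and none was lower, and the share of all genes called there is not given here. Of 10 ES cell markers 5 were higher in IDE2+FGF2 than in IDE2 and 1 was lower, with a median of 1.18. These are 50% and 10%, beside 3.70% and 3.80% of all genes. Of 5 mesenchyme markers 2 were higher and 1 was lower, and the part of these markers was not tested.

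In IDE2+FGF10 against IDE2, 2 members were higher and 5 were lower, where 4.13% of all genes were higher and 9.76% were lower. Hmgcs1 was 2.88-fold lower (adjusted p = 0.012), Hsd17b7 2.84-fold (0.011), Msmo1 2.67-fold (0.023) and Elovl6 5.13-fold lower (log2 change -2.36, adjusted p = 0.0077). Sc5d, the sterol C5 desaturase, read 5.77 and 6.49 in ES, 6.55 and 6.81 in IDE2, 6.38 and 5.93 in IDE2+FGF2, and 5.48 and 5.32 in IDE2+FGF10, where it was not above background. It was at least 1.9-fold lower in IDE2+FGF10 than in IDE2 (log2 change -1.28, adjusted p = 0.028), a call lost without background correction (-0.47, adjusted p = 0.09), with the second deposited table (-0.53, 0.082) and with array weights (0.09). The enzymes that were lower lie at different steps, and Cyp51 and Nsdhl, with changes of 0.00, did not pass.

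Higher in IDE2+FGF10 than in IDE2 were Srebf2, 2.25-fold (log2 change 1.17, adjusted p = 0.027), and Mvd, 2.25-fold (1.17, adjusted p = 0.049). Mvd read 9.74 and 9.59 in ES, 9.40 and 8.63 in IDE2, 9.89 and 10.65 in IDE2+FGF2, and 10.20 and 10.17 in IDE2+FGF10, so the lower IDE2 array carried much of the gap. Without IDE2 replicate 2 the difference was 0.79 for Mvd (adjusted p = 0.26) and 0.95 for Srebf2 (0.12). The 5 lower calls were lost as well without that array (0.064 for Hmgcs1, Hsd17b7 and Elovl6, 0.12 for Msmo1, 0.15 for Sc5d), without IDE2+FGF10 replicate 1 (0.061 to 0.14) and without IDE2+FGF10 replicate 2 (0.078 to 0.18). The Mvd and Srebf2 calls were lost without either IDE2+FGF10 array or either ES array too (0.058 to 0.22). With median scaling no member was higher and 6 were lower, and the share of all genes called in that setting is not given here. Of 5 amino acid stress genes, 3 were also higher in IDE2+FGF10 than in IDE2 (Ddit3 14.2-fold, Atf3 3.61-fold and Trib3 3.23-fold), with a median of 1.69 over the list. The summed level of the 5, which the bright Asns dominates, was 14.05 to 14.63 in IDE2 and 14.04 to 14.18 in IDE2+FGF10. Of 5 endoderm markers tested 3 were lower (60%, beside 9.76% of all genes) and none was higher, with a median of -1.19. These were Sox17, Gata6 and Cxcr4, and Cxcr4 was not above background in IDE2+FGF10. Of 10 ES cell markers 1 was higher and 2 were lower, and of 5 mesenchyme markers 1 was higher and 1 lower. The part of these lists in the differences was not tested.

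FGF10 and FGF2 differed at 2 members. Elovl6 was 4.78-fold lower in IDE2+FGF10 than in IDE2+FGF2 (log2 change -2.26, adjusted p = 0.0058), where 4.71% of all genes were lower. Tm7sf2 was 2.12-fold higher (1.08, adjusted p = 0.036), where 2.60% of all genes were higher. With 1 of 28 members in each direction (3.6%), the counts were near those shares. The arrays of the 2 groups did not overlap for either gene, which also held for 59.7% of all genes. In the same comparison 4 of 5 amino acid stress genes were higher (median 1.56; Ddit3 5.13-fold, Chac1 3.18-fold) and 6 of 10 ES cell markers were lower (median -1.31), and their part was not tested. Without IDE2+FGF2 replicate 2 the adjusted p was 0.066 for Elovl6 and 0.091 for Tm7sf2, and without IDE2+FGF10 replicate 2 it was 0.085 and 0.25. The call of Tm7sf2 was lost without IDE2+FGF10 replicate 1 (0.23), IDE2+FGF2 replicate 1 (0.05) or either ES array (0.084) as well, and with median scaling no member was higher and 2 were lower. Nsdhl, Scap and Msmo1 differed by 1.28 (adjusted p = 0.06), 1.37 (0.05) and -1.12 (0.07) and did not pass. For Nsdhl, 2 of its other probes were past the threshold in the fit by probes, at 1.36 (0.022) and 1.46 (0.026). Its remaining probe differed by 0.08 in that fit (0.9).

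**Figure D4:**
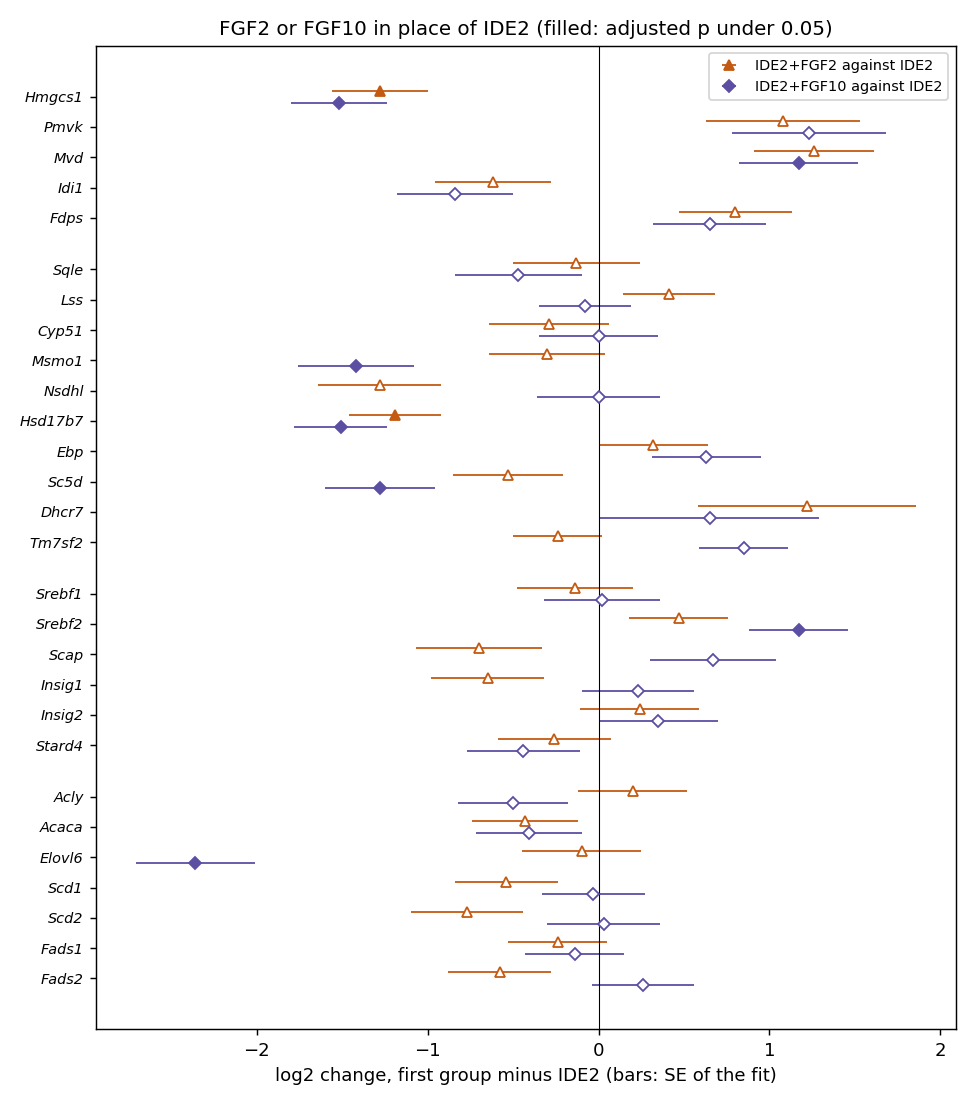
Log2 change of each tested member in IDE2+FGF2 and in IDE2+FGF10 against IDE2 (x axis, bars are standard errors of the fit), with filled symbols where the adjusted p was under 0.05. Hmgcs1 and Hsd17b7 are lower in both, and Elovl6 lies at -2.36 with FGF10 and -0.10 with FGF2.

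The 2 IDE2 arrays differed in the lipid genes in more than 1 direction. Pmvk, Mvd, Fdps and Ebp were 0.77 to 1.5 higher in replicate 1, while Sqle, Cyp51, Msmo1 and Nsdhl were 0.71 to 1.01 lower there. All 7 fatty acid genes were lower in replicate 1, by a median of 0.58. The 2 IDE2+FGF10 arrays differed by -0.06 to 0.35 for the genes from squalene onward.

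Other genes of sterol and fatty acid handling were counted from a list of 40; 31 were on the array and 24 passed the filter. Against ES, 9 rose (37.5%) and 2 fell (8.3%) in each differentiated group, beside 23.1%, 17.8% and 22.2% of all genes that rose and 22.2%, 16.8% and 22.8% that fell, and the list's medians were 0.49, 0.75 and 0.38. Vldlr and Pparg, undetected in ES, and Nr1h3, detected in ES only, passed the filter through the groups in which they were high and so had to differ. Vldlr, a receptor for lipoproteins, was not above background in ES and was at least 19.1-fold, 20.4-fold and 20.9-fold higher in the IDE2, IDE2+FGF2 and IDE2+FGF10 groups. Npc2, which hands cholesterol out of the lysosome, rose 2.69-fold, 4.65-fold and 4.9-fold. Acss2, which makes acetyl-CoA from acetate, rose 2.21-fold, 2.87-fold and 2.9-fold. Elovl1, an elongase of very long chains, rose 4.45-fold, 2.74-fold and 6.73-fold. Lpin1, a phosphatidate phosphatase, rose 1.93-fold, 3.48-fold and 3.95-fold. Pparg, a regulator of fat cell genes, was at least 2.8-fold, 1.37-fold and 2.75-fold higher than in ES, where it was not above background. Agpat2, an acyltransferase of glycerolipid synthesis, fell 7.66-fold, 3.87-fold and 6.44-fold, and Nr1h3, the oxysterol receptor LXR alpha, was detected in ES only and at least 1.33-fold, 1.3-fold and 1.05-fold lower. Acaa2, a mitochondrial thiolase, rose 3.77-fold in IDE2 and 6.28-fold in IDE2+FGF10, and the acyl-CoA synthetase Acsl3 rose 3.46-fold with IDE2 alone and 2.55-fold in IDE2+FGF2. Smaller or single rises were those of Tecr, Lpl, Acsl4 and Dgat2, of which Dgat2 rose 3.01-fold in IDE2+FGF10.

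Between differentiated groups the counts on this list were near those of all genes against IDE2: none of 24 was higher by limma (5 at an unadjusted p under 0.05) and 1 was lower (4.2%, beside 3.80% of all genes) in IDE2+FGF2, and 2 were higher and 2 lower (8.3% each, beside 4.13% and 9.76%) in IDE2+FGF10. In IDE2+FGF10 against IDE2+FGF2, 3 were higher (12.5%, beside 2.60%) and 1 was lower (4.2%, beside 4.71%). Dgat2, which completes triglyceride synthesis, was 3.5-fold higher in IDE2+FGF10 than in IDE2 (adjusted p = 0.022) and 3.91-fold higher than in IDE2+FGF2 (0.023). Acaa2 was 2.78-fold lower in IDE2+FGF2 than in IDE2 (0.035) and 4.62-fold higher in IDE2+FGF10 than in IDE2+FGF2 (0.0061). Acsl3 and its relative Acsl4 were 2.68-fold (0.018) and at least 3.46-fold (0.011) lower in IDE2+FGF10 than in IDE2. Elovl1 was 2.45-fold higher with FGF10 than with FGF2 (0.045), and Lpin1 was 2.04-fold higher in IDE2+FGF10 than in IDE2 (0.031). These comparisons share arrays with those above, and alternative settings were run for the members only.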

How the data were processed

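Total RNA from 8 samples of E14TG2a cells was measured on Illumina BeadChips. The deposited intensity of each probe is the mean over its beads on a linear scale, summarised in BeadStudio per the submitters' processing notes, and its values show no normalization or subtraction of background. The deposited bead count, per the file headers, gives the beads behind each probe (15 to 64 for the probes of these genes), and the deposited detection p-value compares the probe with background. A second deposited intensity table served as an alternative. Gene names came from the platform annotation; 1719 of 25697 probes had none.

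Intensities were normalized with neqc (limma 3.58.1, R 4.3.3): normexp correction, with the background inferred from detection p-values and an offset of 16, then quantile normalization and log2. Named probes with a detection p below 0.05 on 2 or more arrays entered, and the brightest probe represented a gene (9915 genes). One limma model over 8 arrays (4 residual degrees of freedom) gave 6 comparisons, adjusted by Benjamini-Hochberg over all genes; the scripts were tested on simulated data. SEs are from the model. A gene detected on no array of a group was set against the lowest level among detected probes, giving "at least" folds. The members, lists and tests were chosen with earlier results of these data known. Every member may be named; array values are given for the main enzymes and sensors and for members called between differentiated groups, and other pathway genes where they passed. Alternatives changed background correction, scaling, table, filter, probe choice, spread model, array weights, replicate block and arrays used.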

Additional observations from a re-analysis of the deposited data

Results flagged for a closer look

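Elovl6 and Tm7sf2 were picked out because the change on replacing IDE2 with FGF10 differed from the change on replacing it with FGF2, by the limma contrast between those groups. For Elovl6 the first change was -2.36 and the second -0.10, a difference of -2.26 on the log2 scale (adjusted p = 0.0058), which kept its direction in all 19 alternatives, between -2.67 and -1.69. For Tm7sf2 the changes were 0.85 and -0.24, a difference of 1.08 (adjusted p = 0.036), between 0.47 and 1.11 in the alternatives and past the threshold in 9 of the 19. Groups of 2 arrays were too small to look for outlying arrays. The doses of FGF2 and FGF10 differed, so dose and factor cannot be told apart.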

How the results depend on the processing

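Of 54 calls of single members, 34 were kept in all 19 alternatives, 38 in all settings with 8 arrays, and 0 reversed in direction. The counts of members higher than ES stayed within 1.5 times, at 12 to 15 in IDE2, 10 to 15 in IDE2+FGF2 and 11 to 19 in IDE2+FGF10. The small counts moved more. Members lower in IDE2 than in ES were 1 with only the 2 groups compared. Members lower in IDE2+FGF10 than in ES were 2 without background correction, with the second table and with only the 2 groups, and 3 with median scaling and with array weights. Against IDE2, those higher in IDE2+FGF2 were 1 with median scaling, and those lower were 0 with median scaling, array weights or only the 2 groups. Those higher in IDE2+FGF10 than in IDE2 were 1 without background correction, with the second table, with probes as features and with array weights, and 0 with median scaling and with only the 2 groups, where those lower were also 0. Against IDE2+FGF2, those higher in IDE2+FGF10 were 0 without background correction and with median scaling and 2 with the strict filter and with probes as features, and those lower were 2 with median scaling. Leaving out arrays gave 0 to 3 members lower in IDE2 than in ES, 0 to 3 in IDE2+FGF2 and 1 to 2 in IDE2+FGF10. Against IDE2 it gave 0 to 3 higher and 0 to 4 lower in IDE2+FGF2, and 0 to 5 higher and 0 to 6 lower in IDE2+FGF10; against IDE2+FGF2, 0 to 3 higher and 0 to 2 lower. The share of all genes called may move with the setting too. It is not given for these settings, here or above, so the moves are no result about the members. Why these counts moved was not tested. Leaving out replicate 2 of IDE2 and of IDE2+FGF2 together was chosen after seeing the data.

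With the replicate number as a block, 1 member was higher in IDE2+FGF10 than in IDE2, since Mvd had an adjusted p of 0.058; the block changed no other count. Deviations of same-numbered arrays correlated between -0.067 and 0.012, so no large effect shared by replicate number was seen. With 2 arrays a group this cannot show whether same-numbered arrays were made together, and the labels do not say. A block for the slide was not run, as the tables used here name no slide. Dim members rest on signals near background, which limits the size given for Scd2, Fads2, Idi1, Sc5d, Nsdhl, Tm7sf2 and Scap. Over the alternatives the log2 change of Nsdhl in IDE2 against ES lay between 2.27 and 3.76. In IDE2+FGF10 against ES that of Tm7sf2 lay between 0.56 and 1.47, and that of Scap between 1.15 and 2.52.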
